A study of Mus musculus with 18 samples.

Results

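The genes described here encode the stored proteins of neutrophil granules and were counted in cultures of macrophages. They were 10 listed genes of 49315 counted genes, chosen by symbol and matched to Ensembl identifiers through the mouse GRCm38 annotation, and all 10 were found. The rule itself uses symbols and no measured value. The genes fell into 3 classes, which were 4 primary granule genes (Elane, Prtn3, Mpo and Ctsg), 4 secondary granule genes (Ngp, Ltf, Camp and Lcn2) and the 2 calprotectin genes (S100a8 and S100a9). RNA came from bone marrow-derived macrophages (BMDMs) of C57BL/6J mice, grown from femoral marrow in medium conditioned by L929 cells, a fibroblast line that secretes the growth factor M-CSF. The labels name the genotypes WT and HDAC3 KO. The study's methods describe the first as HDAC3 f/f mice, with loxP sites around exon 7 of Hdac3, and the second as M-HDAC3-/- mice, which carry the same sites and a Cre recombinase driven by the lysozyme 2 gene (Lyz2), active in macrophages and granulocytes alike. BMDMs of each genotype were left without treatment (NT), or were exposed for 45 min to non-apoptotic cells (NACs) or to apoptotic cells (ACs), then washed and kept for 5 h. Both kinds of added cell were K562, a human leukemia line, and the ACs had been exposed to UVB. Each of the 6 groups held 3 biological replicates, which makes 18 libraries.

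Total counts ranged from 4704491 to 26421267 per library, and libraries of one group varied more than sampling of reads alone allows (chi-squared of 39.7 to 345 for each degree of freedom). The count of Hdac3 includes exons outside the deleted one and so cannot check the genotype labels. Its level was 3.38 to 48.7 CPM in libraries labelled WT and 4.66 to 74.6 CPM in libraries labelled HDAC3 KO, and the labels are used below as given. CPM are counts scaled to the same total in each library after scaling of the library totals by the TMM method. The cultures carried the defining markers of macrophages, with 10 marker genes that summed to 14360 to 31690 CPM. The 10 markers of mature neutrophils summed to 49.0 to 148 CPM. Csf3r, the G-CSF receptor, gave the most, at 20.6 to 106 CPM, Padi4 reached 30.3 CPM and Fpr1 43.0 CPM, and Ly6g reached 2.58 CPM and Cxcr2 3.65 CPM.

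Neutrophils build their granules in sequence as they mature. The primary, or azurophil, granules are filled at the promyelocyte stage with myeloperoxidase (Mpo), which makes hypochlorous acid, and with the serine proteases neutrophil elastase (Elane), proteinase 3 (Prtn3) and cathepsin G (Ctsg). The secondary, or specific, granules follow at the myelocyte stage and hold lactoferrin (Ltf), which binds iron, cathelicidin (Camp), the precursor of an antimicrobial peptide, lipocalin-2 (Lcn2), which binds bacterial siderophores, and neutrophilic granule protein (Ngp), a cystatin-related protein. S100a8 and S100a9 form calprotectin, a calcium- and zinc-binding dimer of the cytosol that is also made by monocytes. Transcription of the primary granule genes is known to need the factors PU.1 and C/EBPα, and that of the secondary granule genes C/EBPε. In marrow cultures with M-CSF, granulocyte precursors are gradually replaced by adherent macrophages.

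In GRCm38, Prtn3 (chr10:79874476-79883174, plus strand) and Elane (chr10:79886312-79888216, plus strand) lie next to each other with 3137 bases between them. S100a8 (chr3:90668978-90670035, plus strand) and S100a9 (chr3:90692632-90695721, minus strand) are 22596 bases apart. Among the secondary granule genes, those on chromosome 9 are Camp (chr9:109847379-109849617, minus strand), Ngp (chr9:110419747-110423012, plus strand) and Ltf (chr9:111019271-111042767, plus strand), with 570 and 596 kb between them. Mpo is at chr11:87793581-87804413 on the plus strand, Ctsg at chr14:56099881-56102574 on the minus strand and Lcn2 at chr2:32384633-32388252 on the minus strand. The opposite strand of Prtn3 holds Plppr3, with at most 102 counts in any library, and that of Mpo holds Gm11505, with at most 6 counts. The strand setting of the counting is not given in the sources used here, so reads of these overlapping pairs cannot be told apart.

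The sequences before the start sites of the 4 primary granule genes are given first. The window searched was the 250 bases before each RefSeq start site, on both strands, and all 10 genes had one. Here its part up to the first base of a GENCODE M21 exon is printed 5′ to 3′ on the gene's own strand, from RefSeq on GRCm38.p6. Capitals mark the letters GAGGAA, the core of the sites that PU.1 and related ETS factors bind. The windows were chr10:79886062-79886246 for Elane, chr10:79879417-79879613 for Prtn3, chr11:87793534-87793580 for Mpo and chr14:56102575-56102824 for Ctsg. GENCODE M21 also holds a longer transcript of Prtn3 with an earlier first exon, so the Prtn3 window lies inside the annotated gene, in an intron of that transcript.
Elane: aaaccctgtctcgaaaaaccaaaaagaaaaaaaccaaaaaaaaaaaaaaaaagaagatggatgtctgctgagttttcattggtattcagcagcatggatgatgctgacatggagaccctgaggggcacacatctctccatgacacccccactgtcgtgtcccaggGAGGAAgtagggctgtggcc
Prtn3: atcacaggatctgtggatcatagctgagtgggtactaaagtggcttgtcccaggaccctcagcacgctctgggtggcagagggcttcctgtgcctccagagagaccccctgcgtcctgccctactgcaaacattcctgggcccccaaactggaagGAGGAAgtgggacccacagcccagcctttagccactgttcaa
Mpo: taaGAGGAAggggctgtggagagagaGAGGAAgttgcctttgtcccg
Ctsg: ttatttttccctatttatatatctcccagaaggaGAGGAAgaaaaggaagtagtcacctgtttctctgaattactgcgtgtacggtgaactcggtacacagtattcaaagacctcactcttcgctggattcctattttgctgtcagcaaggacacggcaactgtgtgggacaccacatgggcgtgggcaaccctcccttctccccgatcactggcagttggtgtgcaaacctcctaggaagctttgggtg

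The core stood once before Elane, Prtn3 and Ctsg, beginning 85, 95 and 216 bases before the start, and 2 times before Mpo, at 247 and 224 bases. On either strand it was present in 7 of the 10 windows and in 23.2% of the 32851 windows of the same length in the whole table. For the secondary granule genes the search was for TTGCNNAA, a pair of C/EBP half-sites, which was present in 4 of the 10 windows and in 9.56% of all windows. These letters do not overlap the PU.1 core. The windows of Ngp (chr9:110419558-110419746) and Ltf (chr9:111019042-111019270) are printed, with the C/EBP letters in capitals. Ngp was the most abundant of these genes, and Ltf the one that edgeR called in a comparison of treatments.
Ngp: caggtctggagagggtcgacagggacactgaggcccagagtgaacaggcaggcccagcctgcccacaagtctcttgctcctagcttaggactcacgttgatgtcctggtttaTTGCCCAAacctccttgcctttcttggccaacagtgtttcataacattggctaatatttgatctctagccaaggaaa
Ltf: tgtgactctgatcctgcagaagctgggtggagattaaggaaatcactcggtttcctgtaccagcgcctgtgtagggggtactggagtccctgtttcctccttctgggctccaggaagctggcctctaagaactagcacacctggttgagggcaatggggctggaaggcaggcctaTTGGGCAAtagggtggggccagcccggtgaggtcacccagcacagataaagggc

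The printed match began 138 bases before the start of Ngp and, on the other strand, 75 bases before that of Ltf. Another match for Ngp, at 11 bases, lies in the unprinted part, and Lcn2 and S100a9 held matches at 216 and 236 bases. The PU.1 core is not particular to the primary granule genes. It also stands on the other strand at 157 bases for Ltf, at 20 for Lcn2 and at 170 and 36 for S100a8. A match is a description of letters and not a site shown to be bound, and the RUNX letters TGTGGT were found in 2 of the 10 windows against 14.0% of all.

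Every gene had counts in each of the 18 libraries, the NT libraries included, which had received no K562 cells. Levels between genes were compared per kilobase of the counted length (RPKM). Ngp was the highest, with a median over libraries of 253.5 RPKM, followed by S100a9 at 219 and S100a8 at 85.8. Lcn2, Elane and Camp followed at 39.5, 38.3 and 38.2 RPKM, then Ltf at 20.6, Prtn3 at 9.31, Mpo at 8.17 and Ctsg at 4.30. Several neighbours in this order did not keep it from library to library. Ngp was above S100a9 in 7 of 18 libraries, Lcn2 above Elane in 7 and Elane above Camp in 8, whereas S100a9 was above S100a8 in all 18. Ltf was above Prtn3 in 13 libraries, Prtn3 above Mpo in 15 and Mpo above Ctsg in 15. By its counts, Ngp ranked 466th of all counted genes.

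Levels differed widely between libraries, also within a group, and Elane alone spanned 8.91 times in WT NT. For the 10 genes the highest CPM was 8.99 to 54.2 times the lowest, with a median of 13.4, and each exceeded the median of 5.44 over the 11291 genes with a mean of at least 1 CPM. The lowest library for 7 of the 10 genes was replicate 1 of WT NT, and for Camp, S100a8 and S100a9 it was replicate 3 of HDAC3 KO NT. The plot of the 10 genes by library gives all values.

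**Figure D1:**
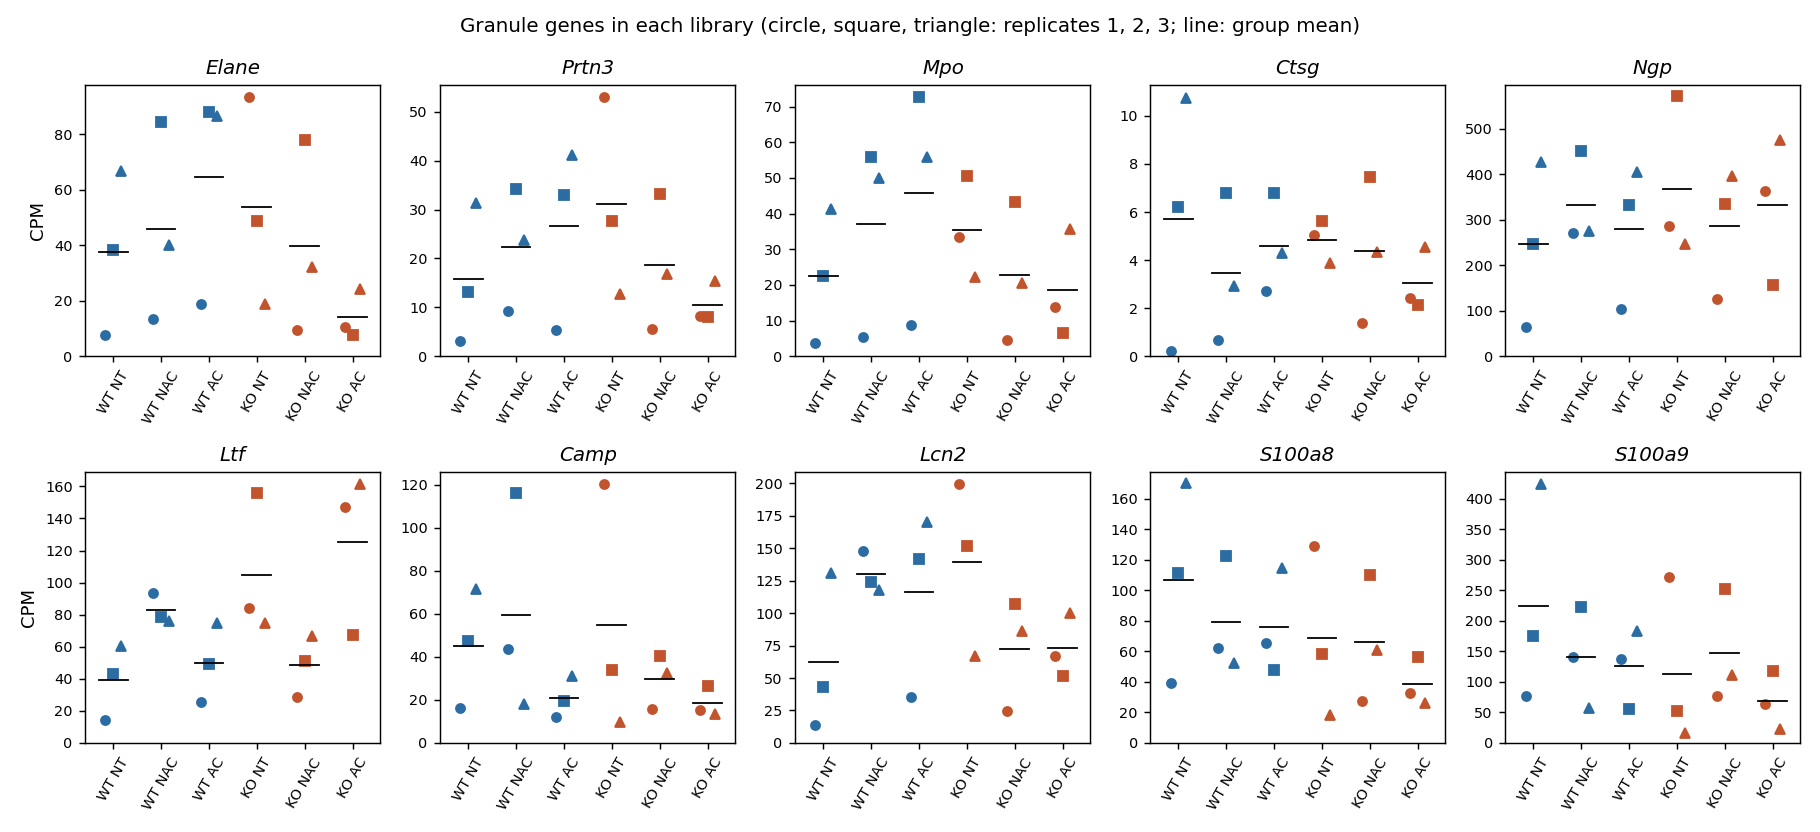
CPM (y axis, from 0) of the 10 granule genes in the 18 libraries by group (x axis), with libraries labelled WT in blue and HDAC3 KO in orange. Symbols are replicates 1, 2 and 3 and lines are group means. In HDAC3 KO AC, Elane lies at 7.74 to 24.2 CPM and Ltf at 67.6 to 161.8 CPM, while replicate 1 of WT NT is low for most genes.

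Elane, the primary granule elastase, was measured at 7.48, 38.3 and 66.7 CPM in the 3 WT NT libraries, at 13.3, 84.4 and 40.1 CPM in WT NAC, and at 19.0, 88.0 and 86.6 CPM in WT AC. In the libraries labelled HDAC3 KO it was at 93.4, 48.8 and 18.9 CPM in NT, at 9.31, 77.9 and 32.2 CPM in NAC, and at 10.7, 7.74 and 24.2 CPM in AC. The highest library of each group except HDAC3 KO AC was at 66.7 CPM or more, and all groups overlapped each other. Prtn3, which lies beside Elane, ran from 3.05 to 53.0 CPM with a median of 16.1, and was lowest and highest in the same libraries as Elane. Mpo ran from 3.64 to 72.6 CPM with a median of 28.0. Ctsg was the scarcest gene, at 0.199 to 10.8 CPM with a median of 4.31, and rested on only 3 counts in replicate 1 of WT NT and 6 in replicate 1 of WT NAC.

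Ltf, which encodes lactoferrin, was measured at 14.4, 43.3 and 60.6 CPM in WT NT, at 93.6, 78.6 and 76.3 CPM in WT NAC, and at 25.7, 49.0 and 75.1 CPM in WT AC. In the libraries labelled HDAC3 KO it was at 84.2, 155.7 and 74.5 CPM in NT, at 28.4, 50.8 and 66.5 CPM in NAC, and at 147.0, 67.6 and 161.8 CPM in AC. Thus NAC libraries lay above NT libraries under the WT label and below them under the HDAC3 KO label, with no overlap in either case. With CPM scaled by library totals alone, in place of TMM, the groups stayed apart under the WT label and overlapped under the HDAC3 KO label. Ngp ran from 63.5 to 571 CPM with a median of 310 and Lcn2 from 14.1 to 199.5 CPM with a median of 104. Camp ran from 9.60 to 121 CPM with a median of 29.0, and its 2 highest libraries, replicate 1 of HDAC3 KO NT and replicate 2 of WT NAC, stood at 121 and 116 CPM. S100a8 ran from 18.6 to 170 CPM and S100a9 from 15.9 to 424 CPM, both highest in replicate 3 of WT NT.

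The primary granule genes varied together. Over the 18 libraries, Pearson's r of log2(CPM + 1) between pairs of them was 0.796 to 0.942, with a median of 0.875, and the neighbours Elane and Prtn3 had the highest value. The secondary granule genes were less uniform, at 0.180 to 0.845. Ngp, Ltf and Lcn2 had r of 0.721 to 0.845 with each other, whereas Camp had r of 0.180 with Ltf and 0.408 with Ngp. Camp instead had r of 0.847 with S100a8 and 0.781 with S100a9, and these calprotectin genes had r of 0.919 with each other. Between primary and secondary genes r ran from 0.247 (Elane and Ltf) to 0.876 (Prtn3 and Lcn2). These values describe 18 libraries that share groups and differ in depth and scaling, and are given with no test.

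**Figure D2:**
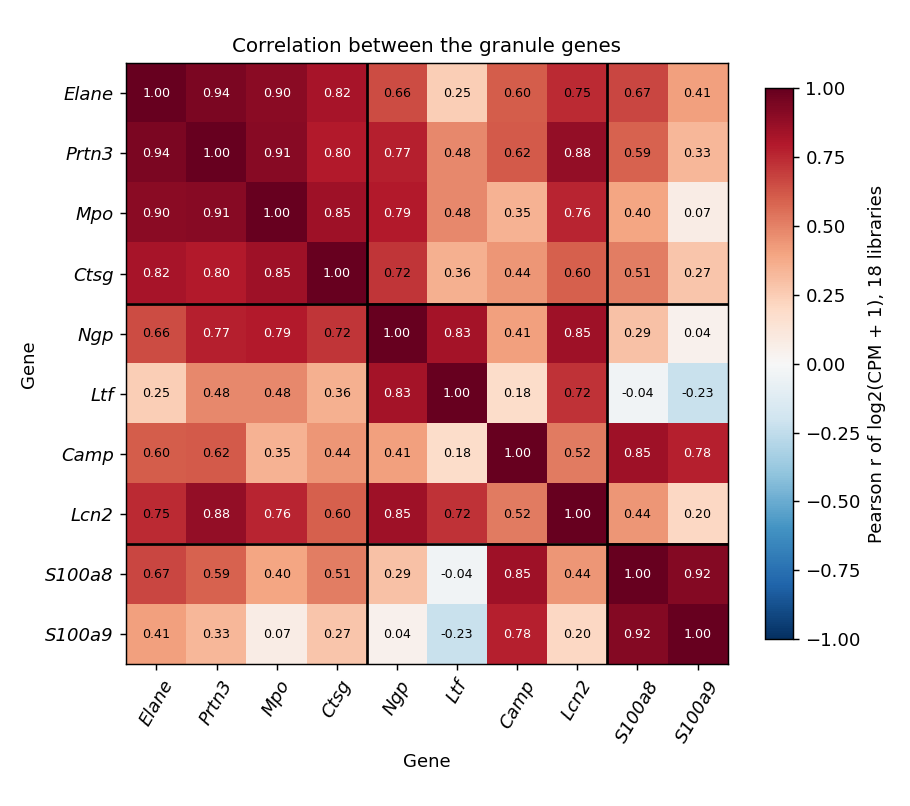
Pearson's r of log2(CPM + 1) over 18 libraries for each pair of genes, ordered as primary granule, secondary granule and calprotectin genes with lines between the classes (color scale from -1 to 1). The primary block is at 0.796 and above, and Camp is closer to S100a8 (0.847) than to Ltf (0.180).

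The balance between the classes also varied. The 4 primary genes summed to 14.4 to 200.5 CPM and the 4 secondary genes to 108 to 912 CPM, and the secondary sum divided by the primary sum ran from 2.71 to 19.4 with a median of 5.91. In WT AC this ratio was 4.97, 2.71 and 3.62, and in HDAC3 KO AC it was 16.9, 12.4 and 9.43. The other groups lay between or across these values, with 7.54, 4.75 and 4.60 in WT NT, 19.4, 4.25 and 4.17 in WT NAC, 3.74, 6.88 and 6.86 in HDAC3 KO NT, and 9.33, 3.30 and 7.86 in HDAC3 KO NAC. The highest ratio of all was thus in replicate 1 of WT NAC, outside the HDAC3 KO AC group. The ratio of Ltf to Elane was 6.69 to 13.7 in HDAC3 KO AC and 0.557 to 1.35 in WT AC. In the other groups it was 0.908 to 1.92 in WT NT, 7.03, 0.931 and 1.90 in WT NAC, 0.900 to 3.93 in HDAC3 KO NT and 0.653 to 3.05 in HDAC3 KO NAC, so that replicate 1 of WT NAC lay inside the range of HDAC3 KO AC. The ratios were computed after the levels had been seen and are not tested. In RNA from whole cultures, fewer cells of a type and less RNA per cell cannot be told apart.

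**Figure D3:**
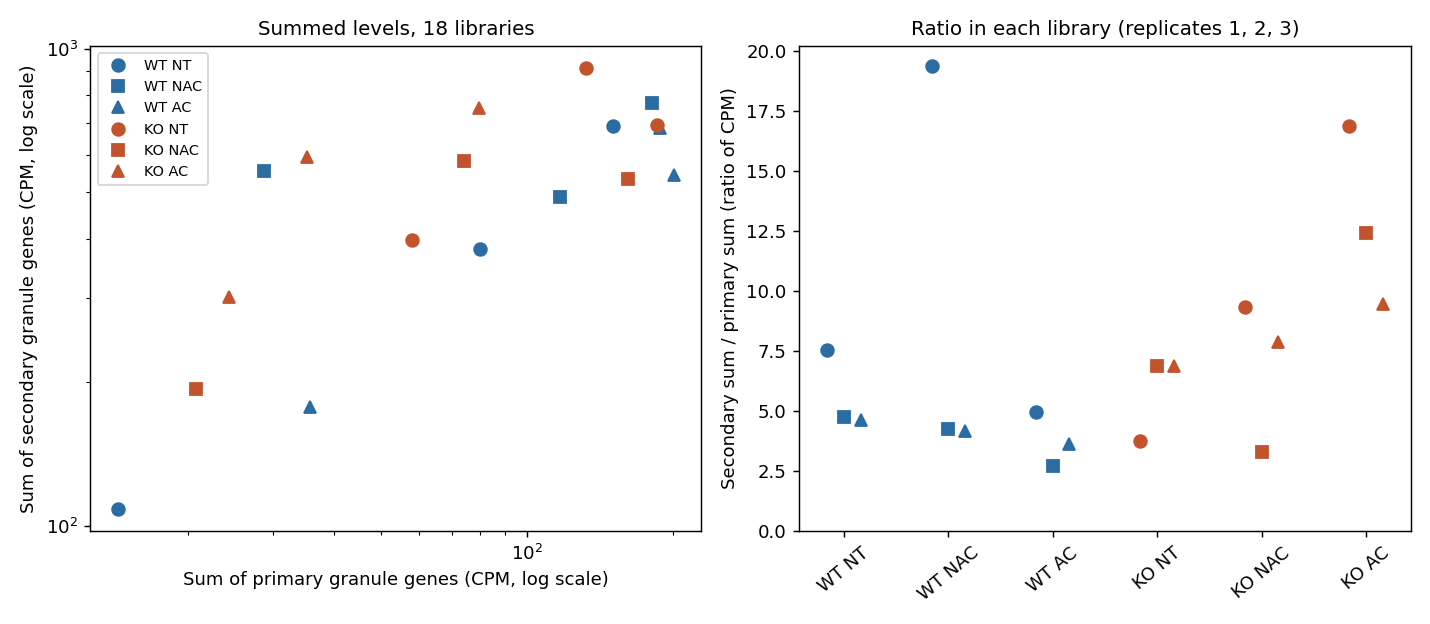
Left, summed CPM of the 4 secondary granule genes (y axis, log scale) against that of the 4 primary granule genes (x axis, log scale) in 18 libraries, colored by genotype label and shaped by treatment. Right, the ratio of the sums in each library by group, where HDAC3 KO AC spans 9.43 to 16.9 and WT AC 2.71 to 4.97.

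The first comparison asked which genes differ with the genotype label in macrophages exposed to ACs. Elane was lower in HDAC3 KO AC than in WT AC, at 14.2 ± 8.77 against 64.5 ± 39.5 CPM (SD, n = 3 each). Its log2 fold change was -2.26 (SE 0.57), with an adjusted p of 0.0424 by the quasi-likelihood test of edgeR, corrected by Benjamini-Hochberg over 12304 genes. The groups overlapped, since replicate 1 of WT AC at 19.0 CPM lay below replicate 3 of HDAC3 KO AC at 24.2 CPM, and the exact two-sided permutation test gave p = 0.2, where 0.1 is the smallest that 3 against 3 libraries allow. It was the only one of the 10 genes called, and 3.75% of all genes tested were called in this comparison, with 2.96% of all genes tested called lower. None of the 10 had groups without overlap, against 28.3% of all genes tested. An unadjusted value under 0.05 was found for 4 of the 10, against 24.3% of all genes. Besides Elane these were Prtn3 (adjusted p = 0.153 by edgeR), Ltf (0.102) and S100a8 (0.171). The 4 primary genes had fitted log2 fold changes of -2.26 to -0.69 with a median of -1.39, and the 4 secondary genes ran from -0.73 (Lcn2) to 1.26 (Ltf) with a median of -0.01, where the median of all genes was -0.01. The call of Elane was lost in edgeR without replicate 1 or 2 of HDAC3 KO AC (adjusted p = 0.323 and 0.0607, with 0% and 13.3% of all genes called) and with all 18 libraries in one fit (0.120), and limma-voom gave an adjusted p of 0.05004. Without replicate 1 of WT AC, edgeR called 3 genes lower, Elane (-2.69, adjusted p = 0.00259), Prtn3 (-1.87, 0.0280) and Mpo (-1.87, 0.0441), with 2.91% of all genes called. With all 6 libraries Prtn3 was at -1.40 and Mpo at -1.39 (adjusted p = 0.288 by edgeR). Prtn3 was at -0.89 (0.435) without replicate 3 of WT AC, and Mpo at -0.83 (0.511) without replicate 2 of WT AC. Without replicate 2 of HDAC3 KO AC it called Ltf higher (1.61, 0.0214) and S100a8 lower (-1.39, 0.0429), with 13.3% of all genes called. The 10 mature neutrophil markers summed to 73.3 to 81.1 CPM in WT AC and 49.0 to 105 CPM in HDAC3 KO AC, with 0 of 7 tested called. The 8 markers of granulocyte-monocyte progenitors summed to 11.9 to 37.1 CPM in WT AC (median 28.2). In HDAC3 KO AC they summed to 8.70 to 17.5 CPM (median 14.7). Of the 4 tested, 0 were called, 2 were fitted higher and 2 lower, with a median log2 fold change of -0.045. Cd34 had 0, 11 and 24 counts in WT AC and 40, 15 and 15 counts in HDAC3 KO AC. The part of progenitors in the level of Elane was not tested. The progenitor genes Kit, Cd34 and Flt3 reached at most 1.03, 1.56 and 0.502 CPM in any library. Cebpe, the most abundant of the list, was at 9.32, 23.5 and 30.1 CPM in WT AC and 8.88, 4.67 and 13.4 CPM in HDAC3 KO AC. Of the 10 macrophage markers C1qc was called higher (log2 fold change 1.48, adjusted p = 0.0472 by edgeR).

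In the other comparisons of the genotype labels edgeR called no granule gene. In NT, edgeR called 0 of the 10 genes and 11.6% of all genes tested. With limma-voom, none of the 10 and 18.8% of all genes were called. DESeq2 called Ltf (log2 fold change 1.49, adjusted p = 0.0275) and with it 27.4% of all genes. Ltf was the only one of the 10 whose groups did not overlap, against 40.9% of all genes (0 of 10 and 37.9% with library totals), and the only one with an unadjusted p under 0.05, against 37.2%. Its mean was 39.4 ± 23.3 CPM in WT NT and 105 ± 44.4 CPM in HDAC3 KO NT (SD, n = 3 each), which is 1.37 higher on the log2 scale (SE 0.53, adjusted p = 0.0884 by edgeR). Of the cell type markers, edgeR called the macrophage gene Lyz2 (-1.94, adjusted p = 0.0425) and the monocyte gene Ccr2 (-2.13, 0.0344) lower. It called the megakaryocyte gene Itga2b (3.00, 0.0440) higher. The part of such cells in the level of Ltf in NT was not tested. Without replicate 1 of HDAC3 KO NT, the library with the fewest counts, edgeR called Ltf higher (1.41, adjusted p = 0.00642) and both S100a8 (-1.60, 0.0424) and S100a9 (-2.82, 0.0428) lower, with 46.3% of all genes called in that fit. With no library left out, S100a8 was at -0.72 and S100a9 at -1.07 (adjusted p = 0.414 and 0.334 by edgeR). The value for Ltf was 0.895 (0.321) without replicate 1 of WT NT and 0.911 (0.296) without replicate 2 of HDAC3 KO NT. With library totals it was 0.787 (0.321).

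In NAC, edgeR, DESeq2 and limma-voom called 0 of the 10 genes, and 0.864%, 3.64% and 0.319% of all genes. The share of edgeR was 24.6% without replicate 2 of WT NAC and 0% without replicate 1 of WT NAC. Ltf and Lcn2 had groups without overlap, against 26.9% of all genes, but with library totals both overlapped, against 27.4% of all genes apart. Ltf was at 82.8 ± 9.41 CPM in WT NAC and 48.6 ± 19.2 CPM in HDAC3 KO NAC, which gave a log2 change of -0.74 (SE 0.34) and an adjusted p of 0.184 by edgeR. Lcn2 had a log2 change of -0.82 (SE 0.40) and an adjusted p of 0.206 by edgeR. Only Ltf had an unadjusted p under 0.05, as did 24.2% of all genes. Without replicate 1 of HDAC3 KO NAC, Ltf was at -0.47 and Lcn2 at -0.41 (adjusted p = 0.601 and 0.646 by edgeR). Ltf thus had a fitted value above 0 in NT and AC and below 0 in NAC. Over all treatments in one fit, edgeR called 0 of the 10 genes and 0% of 13662 genes, and none of the 10 had an unadjusted p under 0.05 where 13.5% of all genes did. DESeq2 and limma-voom called none of the 10, and 0.549% and 0% of all genes.

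**Figure D4:**
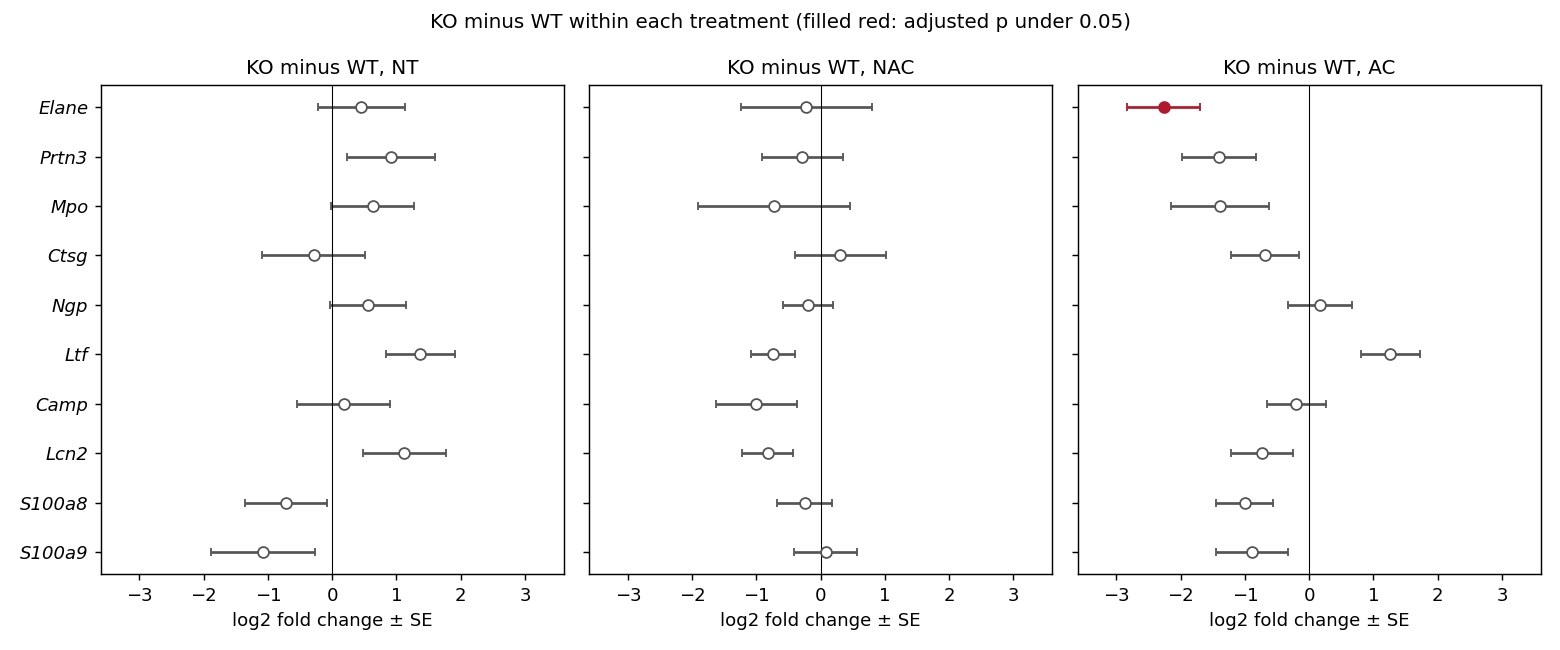
Log2 fold change of HDAC3 KO minus WT (x axis, points) with its standard error (bars) for the 10 genes (y axis) in NT, NAC and AC, from edgeR. Filled red marks an adjusted p under 0.05, which only Elane in AC reached, at -2.26.

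The second set of comparisons asked what exposure to ACs changed relative to NACs or to no treatment. The comparisons within one label share their libraries in part, as do those with the genotype contrasts above. Under the HDAC3 KO label, Ltf was higher with ACs than with NACs, at 125 ± 50.7 against 48.6 ± 19.2 CPM (SD, n = 3 each). The log2 change of Ltf came to 1.37 (SE 0.41, with an adjusted p of 0.0382 in edgeR's quasi-likelihood test), and its groups did not overlap, with 67.6 CPM as the lowest AC and 66.5 CPM as the highest NAC library (exact permutation p = 0.1, the smallest possible). With library totals these groups overlapped, since replicate 2 of HDAC3 KO AC was at 74.7 CPM and replicate 3 of HDAC3 KO NAC at 84.8 CPM. It was 1 of 10 genes called, where 7.38% of all genes tested were called, and 1 of 10 with groups apart, where 29.3% of all genes were. No other granule gene had an unadjusted p under 0.05, against 25.3% of all genes. Elane, the other gene with a call above, was at 39.8 ± 34.9 CPM with NACs and 14.2 ± 8.77 CPM with ACs, a fitted value of -1.47 (SE 0.68, adjusted p = 0.204 by edgeR), which was -0.60 (0.616) without replicate 2 of HDAC3 KO NAC. The call of Ltf was lost in edgeR without replicate 1 of HDAC3 KO NAC (1.11, adjusted p = 0.203), which instead called Elane (-1.94, 0.0102) and 3.4% of all genes. Without replicate 2 of HDAC3 KO NAC (0.132) the call was lost with 2.43% of all genes called. The call was lost too without replicate 1 (0.227) or replicate 3 (0.115) of HDAC3 KO AC, with 0% and 2.4% of all genes called. It was also lost with library totals in place of TMM (1.15, adjusted p = 0.111), with all 18 libraries in one fit (0.112) and with limma-voom (0.0584). Without replicate 2 of HDAC3 KO AC, edgeR called 3 genes, Ltf (1.66, 0.000336), S100a8 (-1.16, 0.0259) and S100a9 (-1.74, 0.00896), with 23.9% of all genes. With no library left out, S100a8 was at -0.75 and S100a9 at -1.07 (adjusted p = 0.293 and 0.251 by edgeR). Without replicate 3 of HDAC3 KO NAC edgeR called Elane (-1.66, 0.0360) and Ltf (1.62, 0.0442), with 4.69% of all genes.

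In this comparison, markers of another cell type were also higher with ACs than with NACs. The 5 fibroblast genes summed to 7.22 to 42.6 CPM in HDAC3 KO NAC and 75.7 to 221 CPM in HDAC3 KO AC, with 2 of 5 called higher, Col1a2 (log2 fold change 2.48, adjusted p = 0.0251 by edgeR) and Col3a1 (2.26, 0.0162). Without replicate 1 of HDAC3 KO AC these were 1.89 and 1.55 and neither was called (adjusted p = 0.172 and 0.227 by edgeR), in a fit that called 0% of all genes. Without replicate 3 of HDAC3 KO NAC, Col1a2 and Col3a1 were at 3.11 and 2.93. The 10 mature neutrophil markers summed to 68.0 to 86.8 CPM in HDAC3 KO NAC and 49.0 to 105 CPM in HDAC3 KO AC, with 0 of 9 tested called. Of the 8 progenitor markers, 5 were tested and Cd34 was called higher (adjusted p = 0.0457 by edgeR), on 2, 3 and 4 counts in HDAC3 KO NAC and 40, 15 and 15 counts in HDAC3 KO AC, so that it passed the filter on low counts through its AC libraries. Of the 10 macrophage markers C1qc (1.29, 0.0382) was called. Under the WT label the 5 fibroblast genes summed to 27.2 to 47.5 CPM in NAC and 7.23 to 189 CPM in AC. There, 3 of the 4 tested were fitted higher with ACs and 1 lower, with 0 called, while Ltf was fitted lower, at -0.71. The part of these cells in the level of Ltf was not tested.

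Under the WT label, edgeR, DESeq2 and limma-voom each called 0 of the 10 genes and 0% of all genes in AC against NAC. Ltf was 49.9 ± 24.7 CPM with ACs and 82.8 ± 9.41 CPM with NACs, a fitted change of -0.71 on the log2 scale (SE 0.38, adjusted p = 0.898 by edgeR) with groups apart, as in 10.4% of all genes, though not with library totals. Camp was the only gene with an unadjusted p under 0.05 (adjusted p = 0.898 by edgeR), where 4.16% of all genes had one. The difference of the AC against NAC effect between the labels was tested as an interaction over 13076 genes. For Ltf it came to 2.10 in log2 units (SE 0.59, adjusted p = 0.0765 by edgeR) and for Elane -1.98 (SE 1.18, adjusted p = 0.377). The value for Elane was -1.05 without replicate 2 of HDAC3 KO NAC and -2.99 without replicate 2 of WT NAC. No granule gene passed, and 0.0765% of all genes did. Ltf was the only one of the 10 with an unadjusted p under 0.05 (20% of all genes), and DESeq2 called it (2.09, adjusted p = 0.0207) with 5.83% of all genes. With limma-voom, none of the 10 and 0.0535% of all genes were called.

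In AC against NT, edgeR and limma-voom called 0 of the 10 genes and 0% of all genes under either label. DESeq2 called none of the 10, and 0.041% of all genes under WT and 0.124% under HDAC3 KO. No granule gene had groups without overlap, where 15.5% of all genes did under WT and 21.5% under HDAC3 KO. Unadjusted p was under 0.05 for Camp under the WT label (adjusted p = 0.393 by edgeR), where 12.7% of all genes had one. Under the HDAC3 KO label it was so for Elane and Prtn3 (adjusted p = 0.311 by edgeR for both), where 14.5% of all genes had one.

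In NAC against NT, edgeR, DESeq2 and limma-voom called 0 of the 10 genes under either label, while edgeR called 8.52% of all genes under WT and 6.54% under HDAC3 KO. DESeq2 called 14.1% and 19%, and limma-voom 2.79% and 13.3%. The share of edgeR under HDAC3 KO was 35.5% without replicate 1 of HDAC3 KO NT and 0% without any of the other 5 libraries. Ltf was the only granule gene with groups apart under either label, against 29.7% of all genes under WT and 38.7% under HDAC3 KO. With library totals it was apart under WT (32.6% of all genes) and overlapped under HDAC3 KO (34.8% of all genes apart). Its log2 fold change was 1.03 under WT (SE 0.38, adjusted p = 0.0648 by edgeR) and -0.94 under HDAC3 KO (SE 0.43, adjusted p = 0.167 by edgeR). The difference between the labels in this effect was not tested. Of the cell type markers, edgeR called the B cell gene Cd79b higher with NACs under WT (1.63, adjusted p = 0.0308). Under HDAC3 KO it called the macrophage gene Lyz2 (2.12, 0.0376) and the monocyte gene Ccr2 (1.86, 0.0459) higher. The 5 fibroblast genes summed to 67.6 to 102 CPM in HDAC3 KO NT and 7.22 to 42.6 CPM in HDAC3 KO NAC, with 0 of 5 called. Under WT they summed to 4.3 to 91.35 CPM in NT and 27.2 to 47.5 CPM in NAC. All 4 tested under WT were fitted lower with NACs, opposite to Ltf, with 0 called. The part of such cells in the level of Ltf here was not tested. Under WT, Ltf alone of the 10 had an unadjusted p under 0.05, against 33.2% of all genes, and under HDAC3 KO none of the 10 had one, against 30.4%. Without replicate 3 of WT NT, edgeR called Ltf (1.39, adjusted p = 0.0387) and Lcn2 (2.06, 0.0136) higher with NACs under the WT label, with 10.9% of all genes, and without replicate 2 of WT NAC it called Ltf (1.10, 0.0482), with 34.2% of all genes. A replicate block also called Ltf (0.0272) and Lcn2 (0.0124) under WT, with 15% of all genes. With no library left out, Lcn2 was at 1.04 (adjusted p = 0.184 by edgeR). Under WT, Ltf was at 0.63 (0.410) without replicate 1 of WT NT and at 0.62 (0.315) with library totals. Under HDAC3 KO it was at -0.53 (0.490) without replicate 2 of HDAC3 KO NT.

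**Figure D5:**
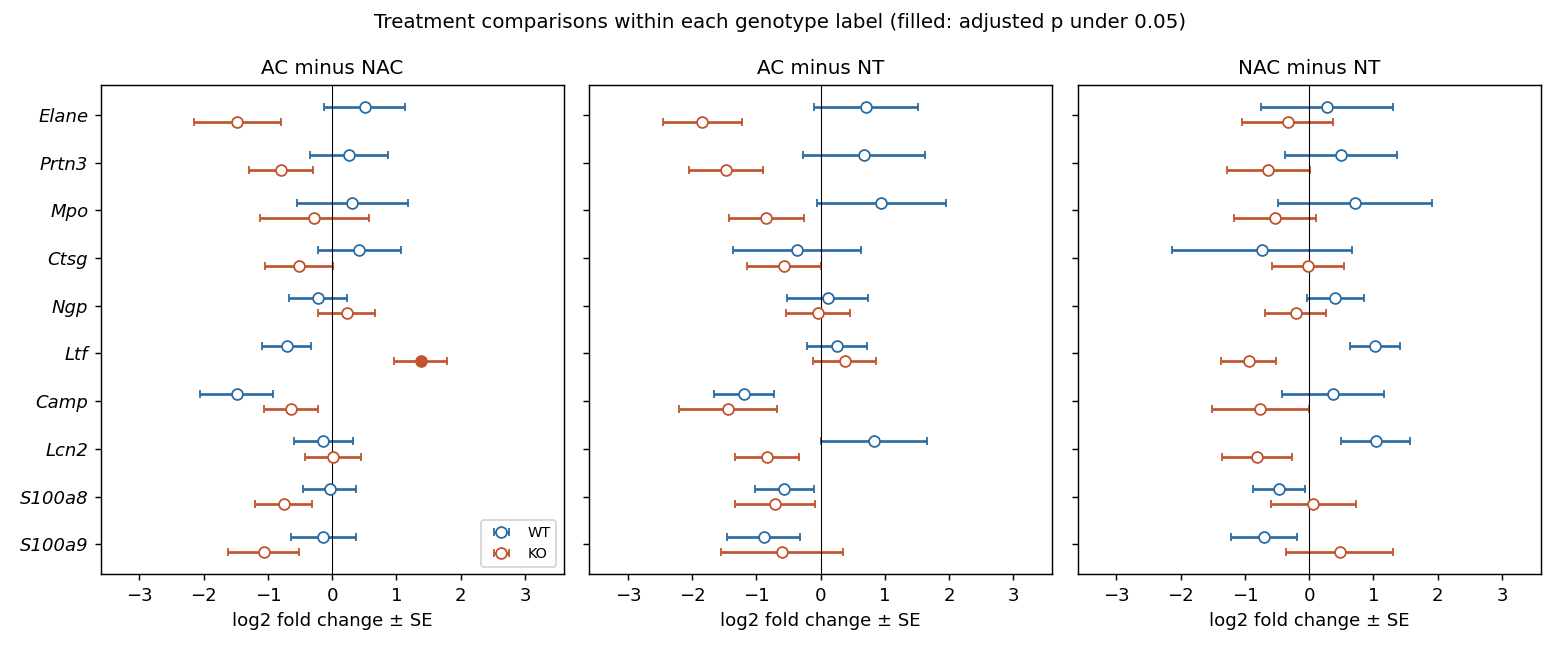
Log2 fold change between treatments (x axis, points) with its standard error (bars) for the 10 genes (y axis), in libraries labelled WT (blue) and HDAC3 KO (orange), from edgeR. Filled points have an adjusted p under 0.05, which only Ltf in AC minus NAC under the HDAC3 KO label reached, at 1.37.

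Other genes of the granule system were followed as lists. Of 10 further granule genes, 8 were tested in HDAC3 KO AC against WT AC, with 0 higher and 1 lower, where 3.75% of all genes were called. This was Cfd, the complement protease adipsin (adjusted p = 0.0315 by edgeR), which had 52, 36 and 37 counts in WT AC and 0, 12 and 3 counts in HDAC3 KO AC. It passed the filter on low counts through its WT AC libraries. Its call was lost in edgeR without replicate 1 (adjusted p = 0.314, with 0% of all genes called) or replicate 3 (0.0795, with 2.68%) of HDAC3 KO AC. Its fitted value was -3.82 with all 6 libraries and ran from -5.25 without replicate 2 of HDAC3 KO AC to -3.18 without replicate 1, so its size is poorly determined at these counts. None of 9 tested was called in AC against NAC under the HDAC3 KO label, where 7.38% of all genes were. By CPM, the measure used to rank genes within all of these lists, the most abundant was Mmp9, at 21.1 to 512 CPM with a median of 72.8. It encodes a gelatinase of tertiary granules that macrophages also make. Of 5 genes for protease processing, storage and inhibition, none was called in either of these comparisons, and Serpinb6a, an inhibitor of cathepsin G, was the most abundant at 701 to 2424 CPM.

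Of 4 receptor genes for the secreted proteins, none was called in these comparisons, and the most abundant was Tlr4, the receptor of calprotectin and of bacterial endotoxin, at 3.77 to 43.6 CPM. Of 8 transcription factors of granule genes, 6 were tested in HDAC3 KO AC against WT AC with 0 called (3.75% of all genes), and 7 in AC against NAC under the HDAC3 KO label with 1 called higher (7.38% of all genes). This was Cebpa, which encodes C/EBPα (log2 fold change 1.31, SE 0.38, adjusted p = 0.0341 by edgeR). Spi1, which encodes PU.1, was the most abundant at 469 to 1633 CPM.

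In comparisons where edgeR called no granule gene, it called some of these list genes, which are named after their values were seen. In HDAC3 KO NT against WT NT 4 of 23 tested were called (11.6% of all genes), Mmp9 and Cebpa as higher and Tlr4 and the protease activator Ctsc as lower. In NAC against NT under the WT label, which uses the same WT NT libraries, 4 of 24 were called (8.52% of all genes), Mmp9 and Cebpa as higher and Tlr4 and Ctsc as lower. Tlr4 was higher in HDAC3 KO NAC than in WT NAC, as 1 of 24 tested (0.864% of all genes, but 24.6% without replicate 2 and 0% without replicate 1 of WT NAC). Under the HDAC3 KO label, NAC against NT had 2 of 24 called (6.54% of all genes), Tlr4 as higher and Cebpa as lower. Each of these calls was lost without 1 or more single libraries, and those of Tlr4 and Cebpa in the last comparison without any but replicate 1 of HDAC3 KO NT. Of 14 alternatives, Tlr4 lost its call in 7 in HDAC3 KO NAC against WT NAC and in 7 in NAC against NT under the HDAC3 KO label, where Cebpa lost it in 8. In the remaining comparisons edgeR called none of these 27 list genes.

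The genes whose pattern over the 18 libraries was most like the mean of the primary granule genes were Ly6c2 (r = 0.920), Nnmt (0.905), Mogat2 (0.899), Mmp23 (0.874) and Crip2 (0.872), out of 11281 genes with a mean of at least 1 CPM. Ly6c2, a marker of inflammatory monocytes, was at 7.88 to 56.5 CPM. The 4 monocyte markers with a mean of at least 1 CPM ran from r = -0.398 (F13a1) to Ly6c2 with the primary mean, and from -0.548 (F13a1) to 0.873 (Plac8) with the secondary mean. For the secondary granule genes they were I830127L07Rik (0.957), Ltb4r1 (0.939), Lrg1 (0.937), Cd177 (0.929) and Prg2 (0.925). Cd177 encodes a neutrophil surface protein of the specific granules and was at 3.05 to 35.5 CPM, and Prg2, the major basic protein of eosinophil granules, was at 0.596 to 36.1 CPM. Cebpe, which encodes C/EBPε, was at 3.44 to 31.9 CPM and had r of 0.862 with the primary and 0.848 with the secondary mean. The 8 mature neutrophil markers with a mean of at least 1 CPM did not share one pattern, with r from -0.689 (Fpr1) to 0.581 (Padi4) with the primary mean, above 0 for 4 of 8, and from -0.890 (Fpr1) to 0.788 (Retnlg) with the secondary mean, above 0 for 6 of 8. These correlations are descriptions over 18 libraries and say nothing of shared control.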

How the data were processed

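RNA of 18 BMDM libraries was prepared by the study with the NEBNext Ultra II kit and sequenced from both ends. Per the labels, the authors trimmed the reads with Trimmomatic 0.36, aligned them with STAR 2.5.2b to GRCm38 and counted them on genes with featureCounts of Subread 1.5.2. The deposited values are whole counts per gene and library with no normalization. The annotation release and strand setting are not given in the sources used here. Of 49315 genes, 49056 matched GENCODE M21 by identifier.

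Samples were grouped by their labels. Counts were scaled by TMM in edgeR 4.0.16 (R 4.3.3), and glmQLFit took only the libraries of the groups compared, with robust dispersions, followed by glmQLFTest, after filterByExpr (minimum count 10, minimum total 15). All 10 granule genes passed in every comparison. The p-values were adjusted by the Benjamini-Hochberg method over all genes tested, with a threshold of 0.05. CPM used TMM factors over all 18 libraries. Exact permutation tests used log2(CPM + 1). The p-values over libraries of both labels may be too small, since treatments may share animals. Alternatives were library totals, DESeq2 size factors, DESeq2 1.42.0, limma-voom (limma 3.58.1), other filters, one fit of all libraries, a replicate block and each library left out.

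The 10 granule genes were named in every library, with a fold change and its test where the adjusted p was under 0.05 or the groups did not overlap. Other list genes were named where called beside a granule gene or most abundant in their list by CPM, which take no account of gene length. Further genes and values, such as Ctsc, Tlr4, Cebpe, single markers and values without 1 library, were chosen after being seen. The members, lists and tests were chosen with earlier results of these data known.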

Additional observations from a re-analysis of the deposited data

How the results depend on the processing

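None of the fitted fold changes followed through the alternatives, which cover Ltf, Elane and other genes named in the report but not each of its values, changed sign, but the number of the 10 genes called did, as did the share of all genes called. In HDAC3 KO NT against WT NT it rose from 0 to 1 with the DESeq2 Wald test and 1 with all 18 libraries in one fit, while the share of all genes went from 11.6% to 27.4% and 28.3%, and was 0 to 3 with 1 library left out in turn (0% to 46.3% of all genes). In HDAC3 KO AC against WT AC it went from 1 to 0 with limma-voom, 2 with no filter and 0 with all 18 libraries (3.75% of all genes against 3.28%, 2.99% and 7.61%), and was 0 to 3 with 1 library left out (0% to 13.3%). In AC against NAC under the HDAC3 KO label it went from 1 to 0 with library totals alone, 0 with limma-voom, 2 with no filter, 0 with all 18 libraries and 2 with a replicate block (7.38% of all genes against 4.72%, 5.87%, 4.19%, 2.39% and 11.4%), and was 0 to 3 with 1 library left out (0% to 23.9%). In NAC against NT under the WT label it rose from 0 to 2 with a replicate block, which called Ltf (1.21, adjusted p = 0.0272) and Lcn2 (adjusted p = 0.0124) in edgeR and 15% of all genes against 8.52%, and was 0 to 2 with 1 library left out (0.169% to 34.2%). In the interaction it rose from 0 to 1 with the DESeq2 Wald test and 1 with no filter (0.0765% of all genes against 5.83% and 1.92%), and was 0 to 1 with 1 library left out (0% to 6.14%). The calls of Cebpa, C1qc, Col1a2 and Col3a1 in AC against NAC under the HDAC3 KO label were lost in 7, 6, 6 and 5 of 14 alternatives and that of Cd34 in 10 of 13, and those of C1qc and Cfd in HDAC3 KO AC against WT AC in 6 of 14 and 2 of 13. In the comparisons of the other list genes, Mmp9, Cebpa, Tlr4 and Ctsc lost their calls in 10, 5, 4 and 5 of 14 alternatives in HDAC3 KO NT against WT NT and in 6, 8, 5 and 6 in NAC against NT under the WT label, where library totals and all 18 libraries in one fit called 0% of all genes. In NAC against NT under the HDAC3 KO label, DESeq2 size factors and the replicate block called 0% of all genes, and in HDAC3 KO NAC against WT NAC so did all 18 libraries in one fit. The cause of these changes was not tested.

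Library totals alone shifted the median log2 fold change of all genes from 0.06 to -0.42 in HDAC3 KO NT against WT NT, the largest such shift among the comparisons run, so small differences between groups depend on the scaling. Replicate numbers were not used as pairs in the main fits, since in only 1 pair of groups (WT AC and HDAC3 KO NAC) did all same-numbered libraries deviate together with r above 0.1, and there only 2 of 3 correlated best with their own number. Replicate 1 of WT NT deviated with that of WT AC (r = 0.602) and of HDAC3 KO NAC (0.659), but r for the same number fell to -0.535 elsewhere. The primary granule sum was lowest in replicate 1 within WT NT, WT NAC, WT AC and HDAC3 KO NAC (14.4, 28.7, 35.7 and 20.8 CPM), but not within HDAC3 KO NT or HDAC3 KO AC. The labels do not say whether same-numbered libraries share animals. The counts of Ctsg (3 in its lowest library), Cfd and Cd34 limit what can be said of these genes. Ltf kept its groups apart with library totals in only 1 (NAC against NT under the WT label) of the 6 comparisons in which TMM set them apart.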
